A study of Mus musculus with 192 samples.

Results

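Socs3 is 1 of the 43 target genes that were counted in the brain of L44 mice, and its mRNA was followed here through all 192 pools of brain RNA. The gene was taken by name, with earlier results of these data known. Each pool held RNA from 1 mouse or equal amounts from 2 mice of the same genotype and collection time, so that 341 tissue samples of male mice entered the 192 pools. L44 mice are an FVB/n line that carries a transgene for triprolyl-human amylin (tripro-hA) under the rat insulin 2 promoter, which drives expression in pancreatic beta cells. Nontransgenic (NON), hemizygous (HEM) and homozygous (HOM) mice came from HEM matings and ate standard chow, and NON mice were littermates where possible. Brains were collected at T1 (100 days, prediabetic), at T2 (diabetes onset, 3 glucose measurements in a row over 11 mM) or at T3 (400 days, described as post-diabetic), in the morning (AM) or afternoon (PM). Each brain was cut into hindbrain with cerebellum, midbrain with forebrain, left cortex and right cortex, which gave 46, 49, 48 and 49 pools. The mice of T2 pools ranged from 90 to 286 days of age over the 3 genotypes, since onset in transgenic mice set the day of collection and T2 NON mice served as their controls, so that T2 comparisons set mice with diabetes against mice without, and the T3 labels mark some NON pools as previously diabetic and some HEM and HOM pools as not. Collection time was not given for 12 T1 HEM pools, which entered no main comparison of groups and formed a group of their own in the correlations.

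Socs3 is a suppressor of cytokine signalling. When leptin binds the long form of its receptor, Lepr-b, the kinase Jak2 phosphorylates the transcription factor Stat3, which enters the nucleus and switches on Socs3 among other genes. The Socs3 protein then binds the receptor and Jak2 and stops the signal, and it also blocks the insulin receptor and its substrates. In the hypothalamus it is known as a brake on leptin and insulin action, and many other cytokines of the interleukin-6 family induce it through the same route.

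The Socs3 promoter holds letters that match the STAT element, the kind of site that Stat3 is known to bind, and they are shown because Stat3 had the highest Pearson's r with Socs3 across all pools in midbrain and both cortices, as given below. The window searched ran from 250 bases before to 50 bases after the transcription start in RefSeq (build GRCm38.p6, minus strand). It held 1 match to the STAT element TTCNNNGAA, which begins 154 bases and ends 146 bases before the start. The 30 bases around it lie at chr11:117969501-117969530, with the element in capitals.

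Socs3 promoter: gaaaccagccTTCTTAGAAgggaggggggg

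The same letters, searched on both strands, occur in 8.3% of 32851 mouse promoters of this length. The AP-1 element TGANTCA (7.81% of promoters) and the CRE element TGACGTCA (1.79%) had no match in the window. Of the 43 panel genes, 34 were matched to a promoter by accession, and 4 of them, Socs3 included, hold the STAT element, whereas the promoters of Stat3 itself and of Npy do not. A match describes letters and does not show that the site is bound.

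mRNA was counted with nCounter, which tallies single barcoded probes without amplification. Socs3 gave low counts, with a median of 33 in hindbrain (range 2 to 112), 61 in midbrain (28 to 450), 74 in left cortex (7 to 391) and 98 in right cortex (20 to 562). Each pool's background was set from its 8 negative control probes (2 SD above their mean) and had medians of 15.5, 21.5, 22.3 and 28.7 counts in the same order. Socs3 was above it in 184 of 192 pools, and 7 of the 8 pools at or under it were hindbrain pools and 1 was a left cortex pool. The total count of the 43 target genes per pool had a median of 151091 in hindbrain (3489 to 252890), 245328 in midbrain (125321 to 314759), 278654 in left cortex (51446 to 490984) and 414121 in right cortex (90264 to 525264). Counts were divided by the geometric mean of the 3 reference genes of their pool and multiplied by 5710.8, the median of those means over the 192 pools, and such values are called normalised counts. The reference gene mean was more than 4-fold below the median of its region in 5 pools, of which 4 were T3 hindbrain pools and 1 was a T3 left cortex pool. In these bulk samples, fewer cells of a type and less RNA per cell cannot be told apart.

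The hypothalamic peptides on the panel set the midbrain pools apart as labelled, and they do not check the labels of the other regions. Mch, the melanin-concentrating hormone precursor, had median normalised counts of 23456 in midbrain pools against 141 in hindbrain, 97.1 in left cortex and 106 in right cortex. Hcrt, the orexin precursor, had 777 in midbrain against 25.6, 27.2 and 28.2, and the arcuate peptide genes Pomc and Agrp were also highest there.

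In NON mice Socs3 was lower in the midbrain than in both cortices. The mean normalised count was 56.6 ± 8.90 (SD, n = 18) in midbrain, 71.1 ± 19.8 (n = 18) in left cortex and 71.3 ± 12.3 (n = 18) in right cortex. In same-numbered pools, taken as the same mice, the left cortex was 1.27-fold the midbrain (mean log2 difference 0.34, SD 0.36, higher in 12 of 16 pairs, adjusted p = 0.00627, two-sided sign-flip permutation test over 6 pairs of regions). The right cortex was 1.26-fold the midbrain (0.34, SD 0.34, higher in 14 of 17, adjusted p = 0.00627). Both differences missed the threshold when 1 of the 3 reference genes was left out (0.22 and 0.21, adjusted permutation p = 0.102 for each). They also missed it in T1 pools alone and in T3 pools alone. The cortices themselves did not differ beyond their spread (log2 difference 0.05, SD 0.44, 17 pairs, adjusted permutation p = 0.651). In hindbrain the NON mean was 53.2 ± 42.9 (n = 18), with its 2 highest values at 171 (8 counts, not above background) and 159 (T1 pool 2/7, 112 counts, the most of any hindbrain pool). The left cortex was 1.53-fold the hindbrain (0.61, SD 1.01, higher in 12 of 14 pairs, adjusted permutation p = 0.0657) and so was the right cortex (0.61, SD 0.89, 11 of 14, 0.053), while midbrain over hindbrain was 0.25 (SD 0.87, 15 pairs, 0.342), none of which passed the test. Both cortex differences passed in 7 of 10 alternative settings, at up to 1.47 and 1.84, and turned to -0.52 and -0.71 in T3 pools alone.

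No change of Socs3 between time points was called. In NON pools of the midbrain the mean normalised count was 58.5 ± 9.82 (SD, n = 5) at T1, 58.4 ± 7.25 (n = 7) at T2 and 52.9 ± 10.2 (n = 6) at T3. In NON pools it was 61.8 ± 14.6, 85.6 ± 15.5 and 62.0 ± 19.7 in left cortex and 71.2 ± 14.1, 79.5 ± 8.51 and 61.9 ± 8.47 in right cortex, with the same n. Among 54 comparisons between time points within a genotype and collection time, Socs3 passed in 0 by the edgeR quasi-likelihood test (adjusted p under 0.05 and a change above 2-fold), and 1 had an unadjusted p under 0.05. DESeq2 also called 0. Over all 43 genes, 3.62% of these tests passed. Without T1 HOM pool 1/5 and T2 HOM pool 6/9, 0 of the 54 met both thresholds, but 8 had an unadjusted edgeR p under 0.05. In that setting the adjusted p fell under 0.05 in at least 1 comparison, which missed only the 2-fold limit. That setting left 1 pool in the T1 HOM PM group. The number of Socs3 comparisons that passed depended on the scaling. It was 17 of the 54 with the positive control probes, a scaling that does not correct for RNA amount. The 3.62% over all genes belongs to the reference gene scaling. The share over all genes with the positive control probes is not given here. The reference gene mean had medians at T1, T2 and T3 of 7505, 6038 and 3685.5 in left cortex and 8272, 8543 and 3569 in right cortex. In hindbrain they were 4530, 5365 and 3652, and in midbrain 5055, 6145 and 6171. Whether the 17 were particular to Socs3 or shared by other genes was not tested.

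**Figure D1:**
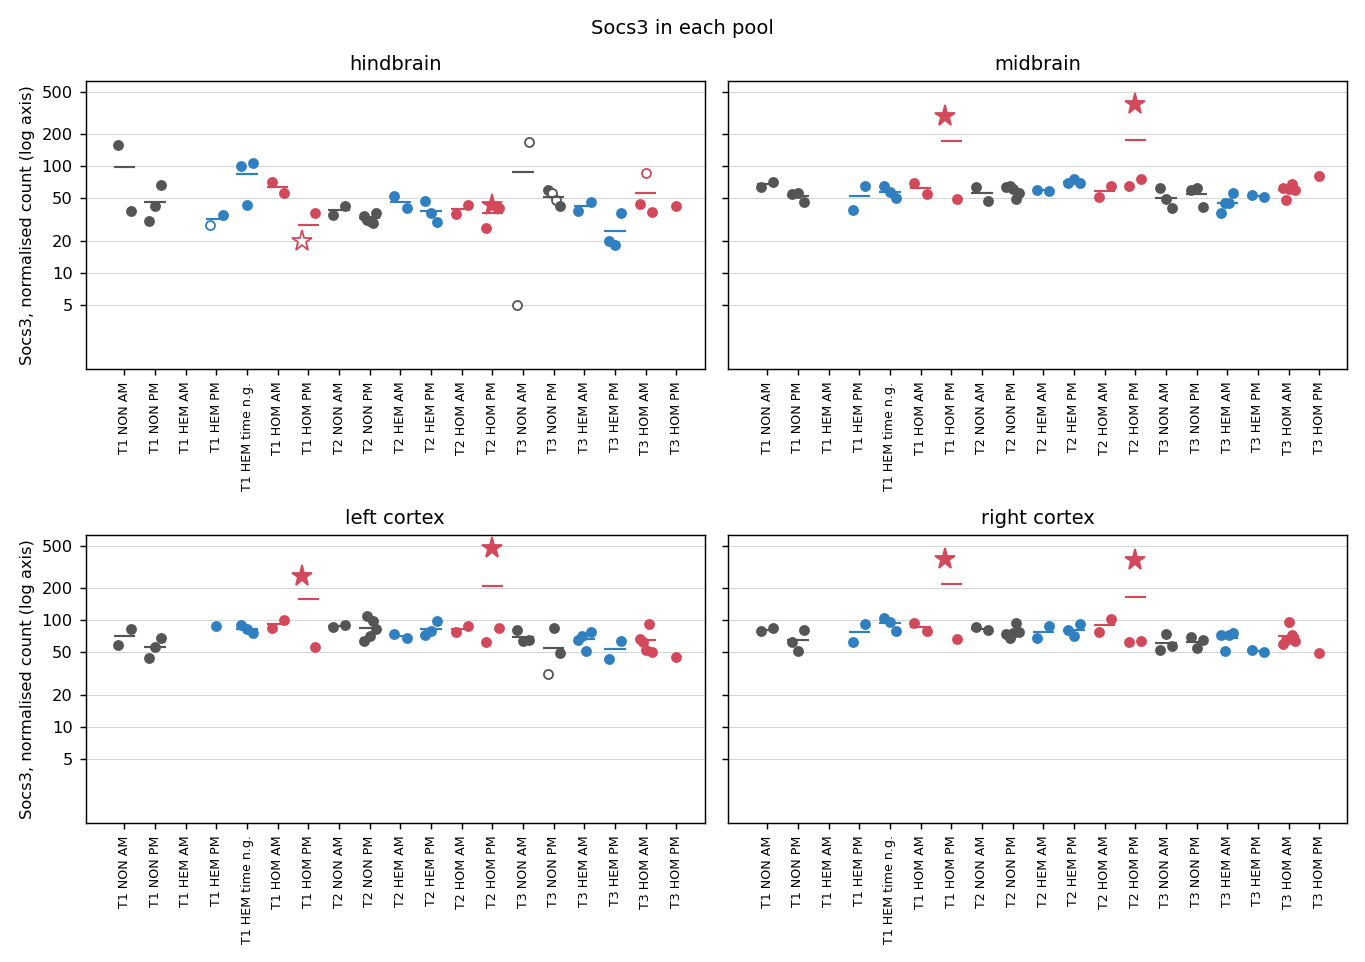
Socs3 normalised count (log axis) in each of the 192 pools, in 1 panel per region and grouped by time point, genotype and collection time, with bars for group means, open points for pools at or under background and stars for T1 HOM pool 1/5 and T2 HOM pool 6/9. The 2 starred pools stand at 262 to 476 in midbrain and both cortices, apart from all other pools of these regions, and lie among the other pools in hindbrain.

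The question of the genotype comparison was whether the amylin transgene altered the gene. Socs3 was called higher in 4 of 39 comparisons of HEM or HOM with NON mice, and all 4 were HOM PM comparisons before or at diabetes onset. These were midbrain at T1 and T2, left cortex at T2 and right cortex at T1. With p adjusted over all comparisons 1 call was left, and with each pair of groups fitted alone 0. Over all 43 genes, 0.298% of the genotype tests (5 of 1677) were called higher, so that Socs3 made 4 of the 5 calls. The remaining one, singled out after its values were seen, was the calcitonin receptor gene Calcr in left cortex of T2 HEM PM pools (log2 fold-change 2.42, edgeR adjusted p = 0.000671). Each of the 4 Socs3 calls was lost without 1 HOM pool, namely pool 1/5 at T1 and pool 6/9 at T2.

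In T1 midbrain the HOM PM pools had normalised counts of 295 (pool 1/5) and 49.9 (pool 8/9), and the NON PM pools had 54.6, 56.1 and 45.9. The pool 8/9 lay within the NON range, so the groups overlapped. The log2 fold-change was 1.71 (SE 0.49, edgeR adjusted p = 0.0447), and it became -0.07 (adjusted p = 0.947) without pool 1/5 and 2.49 without pool 8/9. Where leaving out a pool left 1 pool in a group, here and below, the fit took the spread from the other groups, so that the lone pool was assumed to vary like them. Leaving out any 1 of the NON pools also ended the call, at 1.63 to 1.76 (adjusted p of 0.0772 or more).

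In T1 right cortex the HOM values were 371 (pool 1/5) and 66.6, against 61.7, 51.2 and 80.5 in NON pools. Again 1 pool was high and the other lay among the controls. The log2 fold-change of 1.76 (SE 0.48, edgeR adjusted p = 0.0225) became 0.04 (adjusted p = 0.981) without pool 1/5, and it was 1.72 (0.0581) without NON pool 1/3 and 1.62 (0.124) without NON pool 4/5.

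In T1 left cortex the pattern of values was the same, with 262 (pool 1/5) and 56.3 in HOM pools and 43.9, 55.8 and 68.0 in NON pools. The log2 fold-change of 1.52 (SE 0.52) was not called (edgeR adjusted p = 0.273) and was 0.01 without pool 1/5 and 2.23 (0.005) without pool 8/9, where pool 1/5 alone stood for HOM mice.

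At diabetes onset the midbrain HOM PM pools had 384 (pool 6/9), 65.4 (pool 4/8) and 75.8 (pool 7/10), and the NON pools had 64.0, 65.6, 61.8, 49.8 and 56.4. Pool 7/10 also lay above all 5 NON pools, but by far less, and pool 4/8 lay among them. The log2 fold-change was 1.55 (SE 0.38, edgeR adjusted p = 0.0114) and 0.25 (adjusted p = 0.768) without pool 6/9. The call was also lost against age-matched NON pools alone (1.56, 0.0791) and with the age-matched pairs as a block (1.17, 0.228).

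In T2 left cortex the HOM values were 476 (pool 6/9), 61.6 and 85.1, and the NON values were 63.5, 110, 71.1, 97.2 and 82.4. The log2 fold-change of 1.26 (SE 0.41, edgeR adjusted p = 0.0475) became -0.20 (adjusted p = 0.724) without pool 6/9, and the call was also lost without NON pool 2/15 (1.18, 0.0861), 6/9 (1.32, 0.0805) or 11/14 (1.25, 0.0875), against age-matched NON pools alone (1.14, 0.135) and with the age-matched pairs as a block (0.63, 0.357). In T2 right cortex, where the title and genotype labels of the HOM pools say homozygous but their source label says hemizygous, the values were 365 (pool 6/9), 61.8 and 63.6 in HOM pools and 73.5, 68.2, 76.0, 94.3 and 77.9 in NON pools. There the other HOM pools lay below every NON pool, and the log2 fold-change of 1.06 (SE 0.38, adjusted p = 0.153) was not called and was -0.32 (adjusted p = 0.607) without pool 6/9, and without either of the other HOM pools it was 1.45 and called (0.0249 and 0.0269).

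With pools 1/5 and 6/9 both left out, 0 of the 39 genotype comparisons were called by the edgeR test, 0 had an unadjusted p under 0.05 and the smallest adjusted p was 0.328. No separate cultures or litters are marked in the labels, and the p-values measure the spread between pools, of which these groups held 2 to 5.

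**Figure D2:**
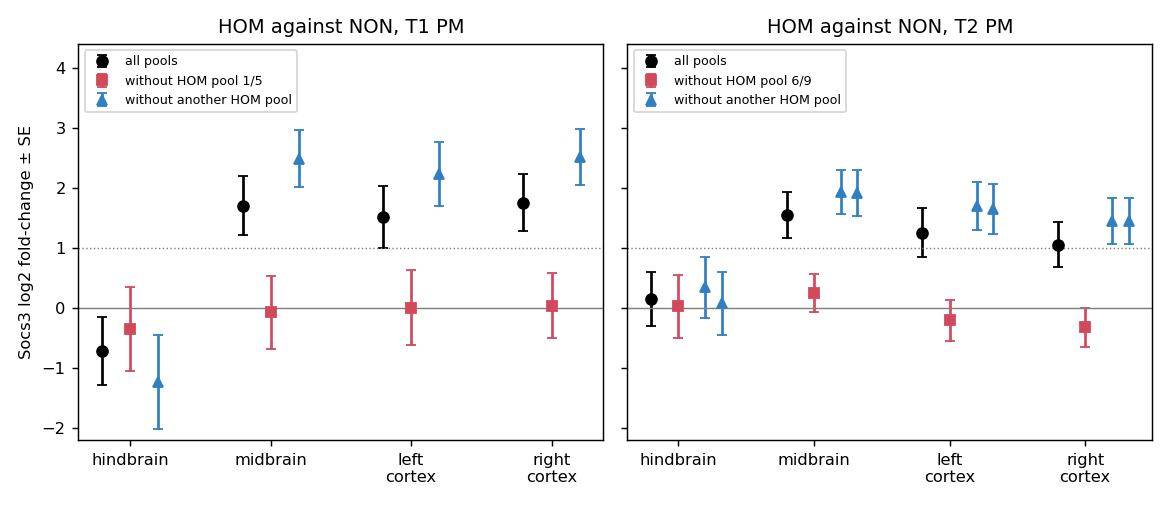
Socs3 log2 fold-change with its SE in HOM against NON PM pools at T1 and T2 (one entry for each region), for all pools, without the high HOM pool (1/5 at T1, 6/9 at T2) and without another HOM pool, with a dotted line at 2-fold. In midbrain and both cortices the values of 1.06 to 1.76 fell to between -0.32 and 0.25 without the high pool and were 1.45 to 2.52 without another pool.

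The high values were present in same-numbered pools of 3 separately dissected regions, and in the raw counts as well as after normalisation. Such pools were taken as the same mice, which the labels do not state. Raw Socs3 counts of pool 1/5 were 231 in midbrain, 391 in left cortex and 562 in right cortex, and those of pool 6/9 were 450, 356 and 515. The background of these pools was 6.09 to 42.04 counts. Their reference gene means were 4471, 8532 and 8648 (pool 1/5) and 6693, 4269 and 8058 (pool 6/9), against region medians of 5844, 5692 and 7826. Relative to the median of the other pools of the same region and time point, Socs3 was 3.32- to 5.98-fold in these 6 measurements. None of the other 140 pools of these regions exceeded 1.51-fold.

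The hindbrain pools of the same numbers did not share the high level. Hindbrain pool 1/5 had 18 Socs3 counts, which was not above its background of 18.7, and a normalised count of 19.9, the lowest of the 14 T1 hindbrain pools. Hindbrain pool 6/9 had 43.01, against 26.6 and 40.3 in the other T2 HOM PM pools and 29.5 to 36.7 in the NON PM pools. HOM against NON in hindbrain was accordingly not called at T1 (log2 fold-change -0.71, SE 0.56, edgeR adjusted p = 0.95) or at T2 (0.16, SE 0.45, adjusted p = 0.978).

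The mice of pool 6/9 were 100 and 128 days old, whereas those of the other T2 HOM PM pools were 171 to 246 days old. The NON PM pool of the same ages (4/13) had 65.6 in midbrain, 110 in left cortex and 68.2 in right cortex, of which the left cortex value was the highest of its group. The mice of pool 1/5 were 101 and 99 days old, as were the other T1 mice within a few days. Each of these pools was a mixture of 2 mice, so whether 1 or both mice had a high level cannot be told apart, and the part of age in the T2 value was not tested.

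Stat3, which encodes the factor that switches Socs3 on, was among the highest genes beside Socs3 in these pools. In T1 midbrain its normalised count was 6995 in pool 1/5 and 4558 in pool 8/9, against 4554, 4495 and 4309 in NON pools. In T2 midbrain it was 7339 in pool 6/9, 5127 and 4977 in the other HOM pools, and 4273 to 5092 in NON pools. Pools 1/5 and 6/9 had the highest Stat3 of their region and time point in midbrain and in both cortices, by 0.57 to 0.83 on the log2 scale over the median of the other pools, and the other 140 pools ranged from -0.26 to 0.30. In hindbrain their Stat3 was at the median of the other pools (-0.05 and 0.03).

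Stat3 passed the adjusted p in all 4 comparisons in which Socs3 was called, though its change stayed under 2-fold and was not called. Its log2 fold-change was 0.38 in T1 midbrain (edgeR adjusted p = 0.0447), 0.35 in T2 midbrain (0.0114), 0.37 in T2 left cortex (0.0475) and 0.50 in T1 right cortex (0.0225). Without the high pool it was 0.03, 0.15, 0.07 and 0.11 in the same order, with adjusted p from 0.439 to 0.981.

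Npy, which encodes the appetite-stimulating neuropeptide Y, was also at its highest in pools 1/5 and 6/9 in midbrain and both cortices. In midbrain its normalised count was 41647 in pool 1/5 and 18753 in pool 8/9 at T1, against 16525, 20919 and 15045 in NON pools. In T2 midbrain it was 41257 in pool 6/9, 29591 and 23443 in the other HOM pools, and 12622 to 22455 in NON pools. Over the median of the other pools the log2 values of the 6 measurements were 0.49 to 1.29. The other 140 pools ranged from -0.96 to 1.03. The midbrain values (1.29 in pool 1/5 and 1.07 in pool 6/9) lay above that range, and the cortex values lay within it. HOM against NON Npy passed the adjusted p in T2 midbrain (0.81, SE 0.24, edgeR adjusted p = 0.0259) and did not without pool 6/9 (0.56, adjusted p = 0.374) or without pool 4/8 (0.85, 0.0528). Iapp and Calcr, singled out after their values were seen, were also among the highest genes of some of these pools. Iapp was at 1.74 (57 counts) in T1 midbrain pool 1/5 and 0.89 (83 counts) in T2 midbrain pool 6/9 but at -0.26 to 0.25 in the cortices, and Calcr was at 1.26 (78 counts) in T1 left cortex pool 1/5 and -0.58 to 0.60 in the other 5 measurements.

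No other gene of the leptin and insulin pathways was called beside Socs3. In the 4 comparisons in which Socs3 was called, 0 of the 6 other leptin genes, 0 of the 13 insulin genes and 0 of the 7 feeding peptide genes were called in either direction by the edgeR test, and 4 of 24, 7 of 52 and 8 of 28 such tests had an unadjusted p under 0.05, beside 26 of 168 (15.5%) over all genes but Socs3. The median log2 fold-change of the leptin genes was 0.11, -0.01, -0.09 and -0.04 (T1 midbrain, T2 midbrain, T2 left cortex, T1 right cortex), and that of all 42 genes other than Socs3 was -0.01, -0.05, -0.14 and 0.00. Insulin gene medians were 0.02, -0.07, -0.14 and -0.01. In pools 1/5 and 6/9 themselves, the log2 values over the median of the other pools were -0.29 to 0.11 for Jak2, -0.33 to 0.47 for Lepr-b, -0.57 to 0.26 for Lepr, -0.43 to 0.14 for the leptin and insulin phosphatase Ptp1b and -0.25 to 0.14 for the Stat3 inhibitor Pias3. The immediate early gene c-Fos was -0.26 to 0.46 in them, and HOM against NON it was -0.15, -0.24, -0.45 and -0.60 in the 4 comparisons, none called. Over all 39 genotype comparisons, 0 of 234 tests of leptin genes, 0 of 507 of insulin genes and 2 of 273 of feeding peptide genes were called, beside 1 higher and 2 lower of 1638 over all genes but Socs3. The feeding peptide calls were lower Agrp in T3 AM hindbrain pools of both transgenic genotypes, where the NON pools had 427 (pool 7, 20 counts) and 37.3 (15 counts) and the HEM and HOM pools 21.7 to 87.5. An unadjusted p under 0.05 was found in 15.8% of the leptin, 17.8% of the insulin and 9.52% of the feeding peptide tests, beside 13.6% of 1638 tests of all genes but Socs3.

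**Figure D3:**
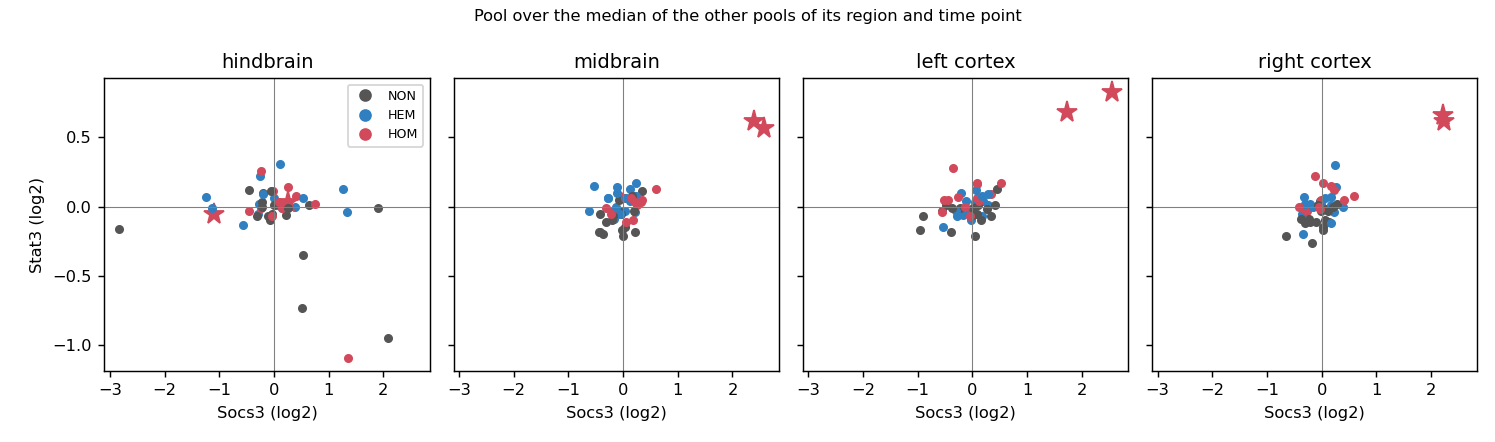
Stat3 against Socs3 in each pool, both as the log2 ratio to the median of the other pools of the same region and time point, in 1 panel per region. In midbrain and both cortices T1 HOM pool 1/5 and T2 HOM pool 6/9 lie at the upper right, with Stat3 at 0.57 to 0.83, apart from the other 140 pools, whose Stat3 lies between -0.26 and 0.30.

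Across all pools, Stat3 had the highest Pearson's r with Socs3 of the 42 other genes in midbrain and in both cortices, though by Spearman's rho Hrh1 (0.44) lay above it in midbrain, and Ptp1b (0.57) and Pde3b (0.54) in left cortex. Values were log2 normalised counts with the mean of each group of time point, genotype and collection time removed, and 168 relations were computed. In hindbrain Stat3 went the other way over all pools, with r = -0.55 (rho -0.29, n = 45, adjusted permutation p = 0.00884). It was -0.57 (0.0111) without the T1 and T2 HOM PM groups. Without the 2 pools farthest from the Socs3 median it was -0.41 and no longer passed (0.0856). Within T1, T2 and T3 hindbrain pools r was -0.29, 0.34 and -0.64. Stat3 also had an r of 0.88 with the reference gene mean there. Pearson's r with Stat3 was 0.84 in midbrain (Spearman's rho 0.36, n = 48), 0.85 in left cortex (rho 0.53, n = 46) and 0.80 in right cortex (rho 0.44, n = 48), each with an adjusted permutation p of 0.000187, from the smallest p that 100000 permutations can give. Without the 2 pools farthest from the Socs3 median r was 0.69, 0.71 and 0.63. Removing a group mean also moves the partners of a high pool down, and without all pools of the T1 and T2 HOM PM groups r was 0.17 (adjusted permutation p = 0.52), 0.38 (0.0757) and 0.20 (0.45). The relation of Stat3 with Socs3 therefore rested on these 2 groups, and within T3 pools r was 0.30, 0.37 and 0.14.

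In left cortex 7 of the 42 genes passed with all pools and 6 without those groups, and Ptp1b, Pde3b, Jak2 and Hdac5 passed in both. Ptp1b had r = 0.58 (rho 0.57, adjusted permutation p = 0.000187), and Pde3b, the phosphodiesterase that insulin activates, had r = 0.58 (rho 0.54, 0.000336). Without the T1 and T2 HOM PM groups r was 0.51 (adjusted permutation p = 0.00616) and 0.57 (0.0028), and within T1, T2 and T3 pools it was 0.50, 0.71 and 0.54 for Ptp1b and 0.62, 0.51 and 0.78 for Pde3b. Jak2 and the histone deacetylase gene Hdac5, singled out after their values were seen, had r = 0.49 (rho 0.48, adjusted permutation p = 0.00534) and 0.39 (rho 0.43, 0.0409), and 0.45 (0.0244) and 0.53 (0.00616) without the groups. Within T1, T2 and T3 pools r was 0.36, 0.50 and 0.61 for Jak2 and -0.37, 0.79 and 0.47 for Hdac5. Without the 2 pools farthest from the Socs3 median Jak2 passed (0.44, adjusted permutation p = 0.0358) and Hdac5 did not (0.40, 0.0842). In right cortex r for Ptp1b was 0.30 (rho 0.31, adjusted permutation p = 0.149) and for c-Fos 0.33 (rho 0.28, 0.0987), and of the 42 genes 1 passed with all pools and 5 without those groups. One of the 5, singled out after its values were seen, was Npy, which turned from r = 0.20 with all pools to -0.45 (0.0203). In midbrain the next genes after Stat3 were the histamine receptor gene Hrh1 (r = 0.48, rho 0.44, adjusted permutation p = 0.00597) and Npy (0.46, rho 0.24, 0.0103), and without the T1 and T2 HOM PM groups these were 0.33 (0.12) and 0.05 (0.884). Of the 42 genes in midbrain, 5 passed with all pools and 0 without those groups. The lowest r per region was -0.56 for Arrb1 in hindbrain, -0.41 for Calcr-1a in midbrain, -0.43 for Ins2 in left cortex and -0.37 for Pdk1 in right cortex, of which those of Arrb1, Ins2 and Pdk1 changed sign under the positive control scaling and that of Calcr-1a was -0.08 (adjusted permutation p = 0.782) without the T1 and T2 HOM PM groups.

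Agrp (r = 0.83, rho 0.74), the amylin gene Iapp (0.81, rho 0.69) and Hrh1 (0.80, rho 0.60) led in hindbrain (n = 45, adjusted permutation p = 0.000187 for each). Of the 42 genes there, 17 passed with all pools and 17 without the T1 and T2 HOM PM groups. Agrp and Iapp were, like Socs3, genes of few counts in hindbrain, with medians of 35 and 16 counts beside a median background of 15.8, and they were at or under background in 6 and 24 of the 45 pools. The Socs3 deviation also fell with the reference gene mean of the pool (r = -0.59), as did those of Agrp (-0.59), Iapp (-0.48) and Hrh1 (-0.71), while in midbrain, left cortex and right cortex the Socs3 value was 0.02, 0.10 and -0.02. Without the pools of low reference gene mean r was 0.77 for Agrp, 0.80 for Iapp and 0.51 for Hrh1. Within T2 pools, none of which was at or under background for Socs3, r was 0.08, 0.21 and 0.28, against 0.65 to 0.94 within T1 and T3 pools. The T1 pools of highest Socs3 were not near background. NON pool 2/7 had 112 Socs3, 192 Agrp and 153 Iapp counts (background 13.2). HEM pool 5/6 had 86, 175 and 139 (18.5), and HEM pool 1/2 had 55, 98 and 52 (11.8). In T3 the highest, NON pool 7, had 8, 20 and 15 (13.7). The insulin gene Ins1, singled out after its values were seen, had r = 0.71 (rho 0.66, adjusted permutation p = 0.000187). The part of low RNA amount in these relations was not tested.

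Pools with the same number at a time point and genotype were taken as the same mice in each region, which the labels do not state and which the ages of T3 HOM pool 1/5 contradict (403 and 401 days in midbrain, 403 and 405 in left cortex). Over all such pools the Socs3 deviations of midbrain and left cortex had r = 0.85 (rho 0.42, n = 44), those of midbrain and right cortex r = 0.85 (rho 0.32, n = 46) and those of the cortices r = 0.77 (rho 0.31, n = 44), each with an adjusted permutation p of 2e-05. Without the 2 pools farthest from the median (T2 HOM pool 6/9 with T1 HOM pool 8/9, or with T2 HOM pool 4/8 for the cortices) r was 0.71, 0.70 and 0.59, and T1 HOM pool 1/5 was still among the points. Without the T1 and T2 HOM PM groups r was 0.21, 0.09 and -0.08 (adjusted permutation p = 0.596, 0.739 and 0.739), so apart from these groups no shared level of a mouse was detected. Hindbrain deviations had r of -0.04, -0.07 and 0.05 with the other regions (adjusted permutation p = 0.753 for each).

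**Figure D4:**
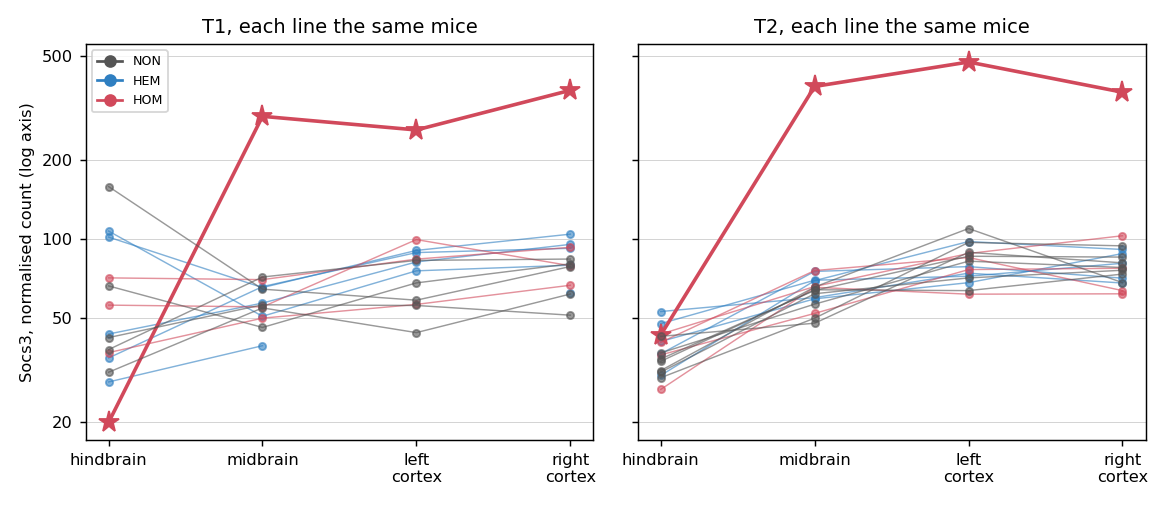
Socs3 normalised count (log axis) in hindbrain, midbrain, left cortex and right cortex, with 1 line per pool number, taken as the same mice, for T1 and T2 pools. HOM pool 1/5 at T1 and HOM pool 6/9 at T2 rise to 262 to 476 in midbrain and both cortices from 19.9 and 43.01 in hindbrain, and no other line reaches above 110 outside hindbrain, where T1 NON pool 2/7 is highest at 159.

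No difference of HEM from NON mice was called for Socs3. In 19 comparisons the log2 fold-change ranged from -1.01 to 0.27, and the smallest edgeR adjusted p was 0.469. That lowest value was in T3 PM hindbrain, where HEM pools had 19.8, 18.1 and 36.7 and NON pools had 60.2, 55.9, 48.5 and 42.1. The groups did not overlap, but 2 of the 4 NON pools (5/6 and 8) had only 5 and 10 Socs3 counts and were not above background, and with the positive control scaling the value turned to 0.53. HOM AM pools were also near NON, with log2 fold-changes of -0.61 to 0.37 in 12 comparisons and 0 called. At T3, where HOM PM groups had a single pool and were not tested, HOM AM against NON was 0.24 in midbrain, -0.10 in left cortex and 0.20 in right cortex (smallest edgeR adjusted p = 0.704). The single HOM PM pools had 42.2 in hindbrain, 82.0 in midbrain, 44.8 in left cortex and 48.8 in right cortex. The midbrain pool (1/5) had the highest Socs3, Stat3 and Npy of the T3 midbrain pools.

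The T3 AM hindbrain could not be read at this depth. The NON pools had normalised counts of 4.97 (2 counts) and 171 (8 counts), and neither was above background. HOM pools had 44.1, 87.5 (2 counts) and 37.1, and HEM pools had 38.2 and 46.1. Both log2 fold-changes were near 0 with all pools (HEM 0.15, HOM 0.17). They turned to -2.01 and -1.99 without NON pool 4/11 and to 3.05 and 3.07 without NON pool 7, each time against a single NON pool that was not above background.

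Transgene dose and collection time gave no call. HOM against HEM was tested in 15 comparisons, of which 0 were called and 5 had an unadjusted p under 0.05 by the edgeR test, and 1 was called by DESeq2. Over all genes, 0% of these tests were called. The highest value was 1.69 (SE 0.57, edgeR adjusted p = 0.121) in T1 PM midbrain, where the HEM pools had 39.1 and 65.8, and it was -0.09 without pool 1/5 and 2.47 (0.00263) without pool 8/9, with 1 HOM pool left in either case. PM against AM was tested in 28 comparisons with 0 called and 4 at an unadjusted p under 0.05 (DESeq2 called 1), beside 0.166% of tests called over all genes. The highest was 1.57 (SE 0.51, adjusted p = 0.0624) in T2 HOM midbrain, where the AM pools had 52.0 and 65.9, and it was 0.26 without PM pool 6/9, 1.96 (0.0148) without pool 4/8 and 1.93 (0.0115) without pool 7/10, both called. The difference of genotype effects between PM and AM was tested in 16 comparisons and that between time points in 8, and 0 of either were called by edgeR or DESeq2, 3 and 0 having an unadjusted p under 0.05. Over all genes 0.0969% of these difference tests were called. The largest was in T1 midbrain, where the HOM effect was higher in PM than in AM by 1.84 on the log2 scale (SE 0.76, edgeR adjusted p = 0.224), by 0.06 without pool 1/5 and by 2.63 (0.0128) without pool 8/9, again with 1 HOM PM pool left. That the 4 genotype calls were all PM calls was thus not shown to be a difference between collection times.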

How the data were processed

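RNA was extracted with a lipid tissue kit and hybridised to a custom nCounter probe set. The deposited values are the authors' raw counts per probe and pool (43 target genes, 3 reference genes, 8 negative and 6 positive control probes), to which no normalisation had been applied. Groups, ages and pool numbers came from the labels. One item of the series is not reported here by name. The gene, the lists and the tests were chosen with earlier results of these data known. Genes named were Socs3, members of a leptin, an insulin and a feeding peptide list (at most 4 of largest change where Socs3 was called), c-Fos, and per region the 3 genes of highest and the 1 of lowest r with Socs3.

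Counts were tested with edgeR 4.0.16 (R 4.3.3; quasi-likelihood test, 1 model per region in which every combination of genotype, time point and collection had its own mean, the reference gene mean as library size, prior count 0.125) and adjusted over the 43 genes of a comparison by Benjamini-Hochberg. The NanoStringDiff package used by the study was not used here. A gene was called at an adjusted p under 0.05 and a change above 2-fold, where both groups had at least 2 pools, except that leaving out a pool could leave 1, which was then assumed to vary like the other groups. Fold-changes are on this log2 scale. Region differences and correlations used log2 of the raw count plus 0.5 over the reference gene mean, with permutation tests (100000 permutations, two-sided, scipy 1.17.1). Scripts were tested on simulated data. Total target counts were 3489 to 525264 per pool, and counting error was largest in T3 hindbrain pools. Among 198 pairs of pools of a group none agreed within sampling noise (lowest chi-square per degree of freedom 4.68). Alternatives were other scalings (positive control probes, TMM, leaving out each reference gene in turn), DESeq2 1.42.0, the likelihood-ratio test, subtraction of the negative control mean, other sets of pools, and leaving out each pool.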

Additional observations from a re-analysis of the deposited data

Results flagged for a closer look

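Among the groups of 4 to 10 pools, 11 were examined for a single pool far from the others in Socs3, and chance alone marks about 1 in 20 such groups. One did, the T3 right cortex HEM AM group (n = 4), in which pool 2/3 had a normalised count of 51.74 against 71.93 to 75.87 in the other 3 pools. The gap was 0.84 of the range of the group, and the value lay within that of T3 right cortex pools of other groups. The T1 and T2 HOM PM groups held 2 and 3 pools and were too small for this examination.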

How the results depend on the processing

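Low counts limit Socs3 in hindbrain, where 7 of 46 pools were at or under background. In T3 hindbrain the NON AM pools had 2 and 8 Socs3 counts, and 2 of the 4 NON PM pools had 5 and 10. Pools, not mice, were the units, and 2 to 5 pools a group limit precision. The cause of each change below was not tested, apart from leaving out pools. Same-numbered pools of different genotypes share no mice, so pairing was by labelled age. Deviations of 40 age-matched pairs had r from -0.44 to 0.57, of which 16 were above 0.1. The labels tie these pairs only by age. NON mice were littermates where possible, but the labels do not say which pairs were.

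The 4 genotype calls became 2 without 1 reference gene, 2 with age-matched NON pools only, 2 with these pairs as a replicate block, 1 with p adjusted over all comparisons, and 0 with the 2 groups fitted alone or without pools 1/5 and 6/9 together (an alternative chosen after seeing the data). Leaving out each pool in turn gave 2 to 6 calls, with 2 without T1 NON pool 1/3 or 4/5, T1 HOM pool 1/5 or T2 HOM pool 6/9, and 6 without T3 NON pool 4/11 or 7, where the 2 further calls compare with the 1 NON pool left. A pool left alone in its group was assumed to vary like the other groups. HOM against HEM gave 1 call by DESeq2 and 1 by the likelihood-ratio test, and 0 to 2 leaving out each pool. PM against AM gave 1 call each with the positive control probes, without 1 reference gene, by DESeq2 and by the likelihood-ratio test, and 0 to 2 leaving out each pool. Time point comparisons gave 17 calls with the positive control probes, 1 after subtracting the negative control mean and 0 to 2 leaving out each pool. Differences of genotype effects gave 0 to 2 (PM and AM) and 0 to 1 (time points) leaving out each pool.

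For HOM against NON PM, values are log2 fold-changes with edgeR adjusted p. T1 midbrain: without a reference gene 1.69 (0.0716) or 1.72 (0.063), groups alone 1.72 (0.269), adjusted over all comparisons 1.71 (0.0684), collection time as a term 0.94 (0.56), all T1 pools 1 (0.963), without pools 1/5 and 6/9 -0.07, leaving out each pool -0.07 to 2.49. T1 right cortex: groups alone 1.76 (0.568), over all comparisons 1.76 (0.0544), collection term 1.03 (0.188), all T1 pools 1.1 (0.453), without both pools 0.04, leaving out each pool 0.04 to 2.52. T2 midbrain: groups alone 1.55 (0.236), age-matched 1.56 (0.0791), age-matched replicate block 1.17 (0.228), collection term 1.11 (0.0523), without both pools 0.25, leaving out each pool 0.25 to 1.94. T2 left cortex: positive probes 1.26 (0.167), without a reference gene 1.27 (0.0529), without low-reference pools 1.26 (0.0508), groups alone 1.27 (0.239), age-matched 1.14 (0.135), replicate block 0.63 (0.357), over all comparisons 1.26 (0.0999), collection term 0.83 (0.195), without both pools -0.20, leaving out each pool -0.20 to 1.70. Leaving out each pool gave 0.01 to 2.23 in T1 left cortex, -0.32 to 1.45 in T2 right cortex (-0.32 without both pools), -1.23 to -0.35 in T1 hindbrain and 0.03 to 0.35 in T2 hindbrain. It gave -0.09 to 2.47 for HOM against HEM in T1 PM midbrain (-0.09 without both pools), 0.26 to 1.96 for PM against AM in T2 HOM midbrain and 0.06 to 2.63 for the difference of HOM effects between PM and AM in T1 midbrain.

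In T3 AM hindbrain, HEM against NON turned to -0.01 with TMM, -0.22 by DESeq2, 0 by the likelihood-ratio test and -0.57 with the groups alone, and HOM against NON to -0.15 by DESeq2 and -0.33 with the groups alone. Leaving out each pool gave -2.01 to 3.05 and -1.99 to 3.07. HEM against NON in T3 PM hindbrain was 0.53 with the positive probes and -1.40 to -0.83 leaving out each pool.

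For regions, midbrain over hindbrain was 0.78 with the positive probes, 0.76 in T2 and -0.62 in T3 pools. Left cortex over hindbrain passed the test with the positive probes (1.47), without 1 reference gene (0.74 or 0.68), after subtracting the negative control mean (0.92), in T2 pools (1.29), with no replicate block (0.67) and without low-reference pools (0.80), and was -0.52 in T3 pools. Right cortex over hindbrain did so at 1.84, 0.73, 0.70, 0.89, 1.2, 0.70 and 0.84, and was -0.71 in T3 pools. Left cortex over midbrain missed the test without 1 reference gene (0.22) and in T1 (0.06) or T3 (0.35) pools, as did right cortex over midbrain (0.21, 0.27 and 0.26). Right over left cortex was -0.09 in T2 pools and -0.01 without low-reference pools.

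The 30 relations with an adjusted p under 0.05 became 117 with the positive probes and 12 without the 2 farthest pools. Arrb1 in hindbrain turned to 0.58 with the positive probes and 0.03 without low-reference pools, Ins2 in left cortex to 0.02 with the positive probes and 0.15 without the HOM PM groups, and Pdk1 in right cortex to 0.30 with the positive probes. For same-numbered pools, hindbrain and right cortex turned to -0.04 without the 2 farthest pools. Without the HOM PM groups midbrain and left cortex gave 0.21, midbrain and right cortex 0.09 and the cortices -0.08.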

Other observations

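The T1 HEM pools without a given collection time were compared with no group. Their Socs3 normalised counts (3 pools per region) were 43.4, 102 and 107 in hindbrain, 50.7, 56.9 and 65.2 in midbrain, 75.6, 81.8 and 90.5 in left cortex and 79.5, 95.5 and 104 in right cortex. T1 NON pools of both collection times (5 per region) ranged from 31.0 to 159 in hindbrain, 45.9 to 71.6 in midbrain, 43.9 to 82.9 in left cortex and 51.2 to 83.9 in right cortex.

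Some T3 NON pools carried a label of previous diabetes. In midbrain those labelled so had 41.6, 49.4 and 60.5 and the others 40.9, 62.2 and 62.6. In left cortex the values were 31.0, 48.8 and 63.6 against 64.8, 79.9 and 83.8, and in right cortex 64.6, 69.1 and 73.6 against 52.3, 54.9 and 57.1. The groups did not overlap in either cortex, and their order was opposite in the left and the right, with 30.99 in the left cortex coming from 7 counts, which were not above background. In T3 HEM pools labelled previously diabetic the values were 45.7, 53.7 and 55.7 in midbrain, 43.4, 70.5 and 76.7 in left cortex and 51.7, 52.9 and 75.9 in right cortex. In the other T3 HEM pools they were 36.1, 45.5 and 51.5, then 50.8, 63.1 and 64.8, then 50.5, 71.9 and 72.2, and the ranges overlapped in each of these regions. In hindbrain the previously diabetic HEM pools ranged from 19.8 to 46.1 (n = 4), and the 1 other pool had 18.1. Hindbrain NON pools labelled previously diabetic had 48.5, 60.2 and 171, and the other NON pools 4.97, 42.1 and 55.9. Of these, the pools at 48.5, 171, 4.97 and 55.9 were not above background. These splits were not tested.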
